A study of Mus musculus with 4 samples.

Results

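The 7 genes described here are the protamine genes Prm1, Prm2 and Prm3, the transition protein genes Tnp1 and Tnp2, and the spermatid linker histone genes Hils1 and H1fnt (H1f7 in RefSeq, also known as H1t2). Prm3, whose protein is acidic, is counted with the protamines by name, and the others encode proteins that pack DNA in spermatids. The 7 genes were taken by name (PRM1, PRM2, PRM3, TNP1, TNP2, HILS1 and H1FNT) from the 112302 entries of the deposited tables, and all 7 were present. The tables hold RNA levels in testis of BALB/C mice, with a single library from each of 4 ages: the embryo at day 14 (E14) and day 18 (E18), the young mouse of 3 weeks and the adult of 6 months. No treatment or genotype other than the strain is named. A supplier sold the RNA, and how many animals went into each library is not stated. Levels are RPKM, read numbers divided by gene model length and library size, so that genes of unequal length can be compared. Since no age was replicated, no difference has a replicate check or a p-value. Intervals are exact at 95% and cover counting error only.

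In round spermatids the DNA is still wound on histones. As spermatids elongate, most histones are removed, the transition proteins take their place for a time, and the protamines, short proteins rich in arginine, then compact the DNA. The mRNAs of protamines and transition proteins are made in round spermatids and stored before translation. Hils1 and H1fnt are linker histones of spermatids. Prm3 lies among the protamine genes but encodes an acidic protein, unlike Prm1 and Prm2. No spermatids are present in the fetal testis, and in the mouse the first wave of spermatogenesis reaches round spermatids in the weeks after birth.

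On GRCm38, the assembly also called mm10, 4 of the genes lie in a cluster on the minus strand of chromosome 16. GENCODE vM21 places Tnp2 at chr16:10787936-10788660, Prm3 at chr16:10790505-10790914, Prm2 at chr16:10791380-10796134 and Prm1 at chr16:10796326-10805839. Tnp1 lies on the minus strand at chr1:73015074-73015909. Prm1 and Prm2 each have 2 annotated transcripts. Hils1 is a single exon on the plus strand at chr11:94967593-94968456. It lies inside Sgca, a muscle gene on the opposite strand, and shares no exon base with it. H1fnt is a single exon on the minus strand at chr15:98255986-98257293.

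The sequence before the start site is shown for the members whose levels were furthest apart between 3 weeks and 6 months, since a cAMP response element bound by CREM, a master transcription factor of spermatids, is known in the promoters of Prm1 and Tnp1. All 7 genes had a promoter entry from RefSeq on GRCm38.p6. Capitals mark TATA between 45 and 20 bases before the start on the sense strand, or 8 bases that differ from the full element TGACGTCA at no more than 1 position. That element reads the same on both strands. For Prm1 the 30 bases around the element are given, which do not reach its TATA at position -32.
Prm1, chr16:10796869-10796898, minus strand: ctggtcctcttTGACTTCAtaattcctagg
Tnp1, chr1:73015910-73016009, minus strand: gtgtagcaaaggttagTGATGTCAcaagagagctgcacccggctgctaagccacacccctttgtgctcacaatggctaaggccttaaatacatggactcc
Prm2, chr16:10792106-10792205, minus strand: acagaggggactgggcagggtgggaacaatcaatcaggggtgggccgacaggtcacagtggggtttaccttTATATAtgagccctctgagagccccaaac
Tnp2, chr16:10788661-10788760, minus strand: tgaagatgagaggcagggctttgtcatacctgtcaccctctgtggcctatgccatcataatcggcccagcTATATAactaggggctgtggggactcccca

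Prm1 held TGACTTCA at position -64 from the RefSeq start (G5T, counted from 1 at the first base of TGACGTCA). Tnp1 held TGATGTCA at -94 (C4T). Prm3 and Hils1 each held TGAGGTCA (C4G), at -60 and -7. No such match was found for Prm2, Tnp2 or H1fnt. Over all 32851 RefSeq promoters of the same length, 12.5% held the element with at most 1 other base, and 1.79% held it in full. TATA in the window stood before Prm1, Prm2 and Tnp2 and before 6.62% of all promoters. These matches describe the letters of the windows and are not measured binding.

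Before birth the 7 genes were close to the limit of detection. Together they had 48 reads at E14 and 50 at E18, of 38903334 and 34228140 reads behind the RPKM values. Tnp1, the transition protein that is the more abundant in mouse spermatids, had the highest deposited level at both stages, with 0.422 RPKM at E14 and 0.960 at E18. On the lengths of the GENCODE transcripts, which for Prm1 is shorter than the deposited model, Prm1 was above it at E14 (0.548 and 0.412 RPKM), from 10 and 7 reads. Prm3 had 0 reads at E14, with an exact upper bound of 0.232 RPKM (3 reads would be 0.189 RPKM), and 1 read at E18. The other levels in the fetal libraries lay between 0.110 and 0.425 RPKM. None of the 7 differed by 2-fold between E14 and E18 on the log2(RPKM + 1) scale, where 2.17% of 42964 measured entries were higher and 1.34% lower (3.60% and 1.69% of established protein-coding symbols). The counting interval of the ratio held 1 for the 6 genes with reads at both stages, as for Tnp1 at 2.27 (0.859 to 6.65). Entries counted as measured if they reached 1 RPKM in at least 1 library. All 7 genes did so, and Prm1, Prm2, Tnp2 and H1fnt did so at 6 months alone.

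At 3 weeks the linker histone Hils1 was the highest of the 7. It had 0.194 RPKM at E14, 0.110 at E18, 3.996 at 3 weeks, then 219 at 6 months. The level at 3 weeks rested on 108 reads and was 36.3 times that at E18 (12.1 to 179). The log2 difference was 2.17, the largest of the 7 in that comparison.

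H1fnt, which sits at the apical side of the spermatid nucleus and is needed for chromatin condensation, had 0.252 RPKM at E14, 0.220 at E18, 0.9995 at 3 weeks, then 174 at 6 months. It stood below Hils1 at 3 weeks, with 4.54 times its own E18 level (2.25 to 10.1) but a log2 difference of 0.71 on the log2(RPKM + 1) scale, under the limit of 1. Per length, the ratio of Hils1 to H1fnt was 3.998 at 3 weeks (2.80 to 5.79) and 1.26 at 6 months (1.22 to 1.30). The 2 linker histone genes were thus nearer to each other in the later library.

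Tnp1 had 0.422 RPKM at E14, 0.960 at E18, 3.46 at 3 weeks, then 2299.6 at 6 months. It was the highest protein-coding gene with an established symbol in the 6-month library, where 18630 such genes were ranked. Tnp2, the zinc-binding transition protein, had 0.374 RPKM at E14, 0.425 at E18, 0.964 at 3 weeks, then 937 at 6 months, and ranked 4th. Tnp1 exceeded Tnp2 by 3.59 times at 3 weeks (2.06 to 6.53) and by 2.45 times at 6 months (2.41 to 2.50), and the interval at 3 weeks covers the value at 6 months.

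Prm2, whose product is made as a precursor and then shortened, had 0.166 RPKM at E14, 0.283 at E18, 0.760 at 3 weeks, then 1528 at 6 months, and ranked 2nd. Prm1, which is made in its final form, had 0.192 RPKM at E14, 0.175 at E18, 0.573 at 3 weeks, then 905 at 6 months, and ranked 5th. In both genes the deposited levels of the first 3 libraries lay under 1 RPKM and the 6-month library stood far above them.

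Prm3 had 0 RPKM at E14, 0.0716 at E18, 1.52 at 3 weeks, then 93.1 at 6 months. At 3 weeks it had 21 reads, against 26 for Prm1 and 16 for Prm2, and at 6 months it was the lowest of all 7, at rank 120. Per length it stood at 1.99 times Prm2 at 3 weeks (0.992 to 4.09) and 0.0609 times Prm2 at 6 months (0.0577 to 0.0643).

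**Figure D1:**
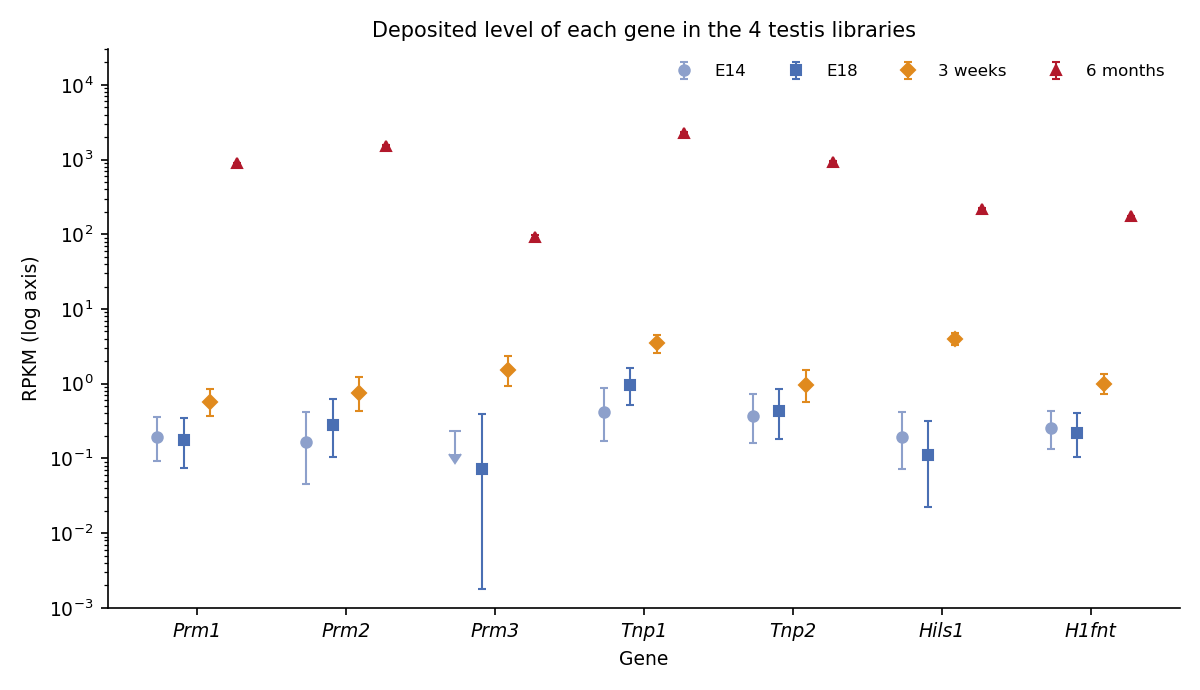
RPKM (log axis) of each of the 7 genes in the E14, E18, 3-week and 6-month libraries, with exact 95% Poisson intervals of the counted reads; the arrow marks the upper bound for Prm3 at E14, where no read was counted. All 7 genes stood at or below 0.960 RPKM in the fetal libraries, between 0.573 and 3.996 at 3 weeks and between 93.1 and 2299.6 at 6 months.

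In the order of deposited RPKM at 3 weeks, Hils1 and Tnp1 had overlapping counting intervals and stood above the other 5 genes. Prm3, H1fnt, Tnp2 and Prm2 overlapped one another, and Prm1 came last, with an interval (0.374 to 0.839) below that of Prm3 (0.938 to 2.32). On GENCODE transcript lengths Prm1 (1.07 to 2.39) came next after Hils1 and Tnp1 and overlapped Prm3 (0.934 to 2.31). At 6 months the order was Tnp1, Prm2, Tnp2, Prm1, Hils1, H1fnt and Prm3, and no 2 neighbours overlapped in counting error. The spread between animals is unknown for this order.

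The place of Prm1 in these orders depended on the length of its gene model. The step between low RPKM values gave a model of 1337 bases for Prm1, 2.85 times its first GENCODE transcript of 469 bases. For 5 of the other 6 genes, the recovered length or its double lay within 3% of a GENCODE length, and for Hils1 it was 796 against 864 bases. If all Prm1 reads came from the 469-base transcript, its level at 6 months would be 2581 RPKM, above Tnp1 at 2242 on the same basis. The exons of the 2 annotated Prm1 transcripts cover 571 bases together, and a level on that longer length was not computed. The ratio of Prm1 to Prm2 at 6 months was 0.593 (0.584 to 0.601) with the deposited model and 1.69 (1.67 to 1.72) with transcript lengths. By recovered reads, Prm1 was the most abundant at 6 months, with 43343 reads, followed by Tnp1 with 35072 and Prm2 with 33918. Recovered reads are the smallest that fit. Those of Prm1 and Hils1, whose lengths matched no annotated length, could be a multiple of the numbers given. Where in the longer model the reads lay was not tested. Ratios of Prm1 RPKM between libraries do not depend on the length, but its differences on the log2(RPKM + 1) scale do. On the transcript length its log2 difference was 0.81 between E18 and 3 weeks, beside 0.42 with the deposited model, and 9.94 between 3 weeks and 6 months, beside 9.17. No call of the 7 genes was lost or gained on transcript lengths.

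Hils1, Prm3 and Tnp1, 3 of the 7 genes, passed 2-fold upward from E18 to 3 weeks on the log2(RPKM + 1) scale. In the same comparison 32.0% of all measured entries were higher and 10.5% lower, as were 22.7% and 13.8% of established protein-coding symbols, so 3 of 7 is near the background. Prm3 had a log2 difference of 1.23 and a ratio of 21.2, with a wide interval from 3.40 to 876 because E18 had 1 read. For Tnp1 the log2 difference was 1.19 and the ratio 3.60 (1.96 to 7.05). The call for Tnp1 was lost when libraries were rescaled by the median of ratios (log2 difference 0.92). Rescaling over ribosomal protein genes brought H1fnt past the limit (1.08). Prm1, at a ratio of 3.28 (1.44 to 8.37), and Prm2 and Tnp2, whose intervals held 1, had log2 differences between 0.42 and 0.46, close to the median of all entries, 0.46. The median of established protein-coding symbols was lower, 0.18.

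Between 3 weeks and 6 months all 7 genes were at least 2-fold higher, against 9.73% of all measured entries and 8.50% of established protein-coding symbols, while 14.1% and 7.83% were lower. By the median of ratios, 80.1% of the entries past 2-fold were higher, beside 40.8% as reported, and the 7 genes stayed higher. With deposited values Prm2 had the largest difference of all 42964 entries, 9.76 on the log2(RPKM + 1) scale. On transcript lengths Prm1 stood above it, at 9.94 against 9.76. The RPKM of Prm2 was 2010.4 times higher (1238 to 3518). Prm1, Tnp1 and Tnp2 took places 3, 4 and 5, with log2 differences of 9.17, 9.01 and 8.90. Place 2 went to NONMMUG015766 (0.677 and 1006 RPKM), named after its values were seen. This entry has no stated position, so whether it overlaps one of the 7 genes and shares its reads is not known. The RPKM ratio was 1581 for Prm1 (1079 to 2420.5), 665 for Tnp1 (504 to 896) and 972 for Tnp2 (615 to 1641).

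The linker histones and Prm3 formed a lower group. H1fnt had a log2 difference of 6.45 and was 174 times higher (129.6 to 238), at place 11. Hils1 and Prm3 had log2 differences of 5.46 and 5.23 and ratios of 54.8 (45.3 to 66.9) and 61.4 (40.02 to 99.5). The counting intervals of Hils1 and Prm3 overlapped each other, and neither reached that of H1fnt or of the other 4 genes. The median of the 7 differences was 8.90, beside -0.31 over all measured entries. Set against E18 in place of 3 weeks, the 7 log2 differences lay between 6.46 for Prm3 and 10.22 for Prm2, in a comparison where 32.9% of entries were higher.

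**Figure D2:**
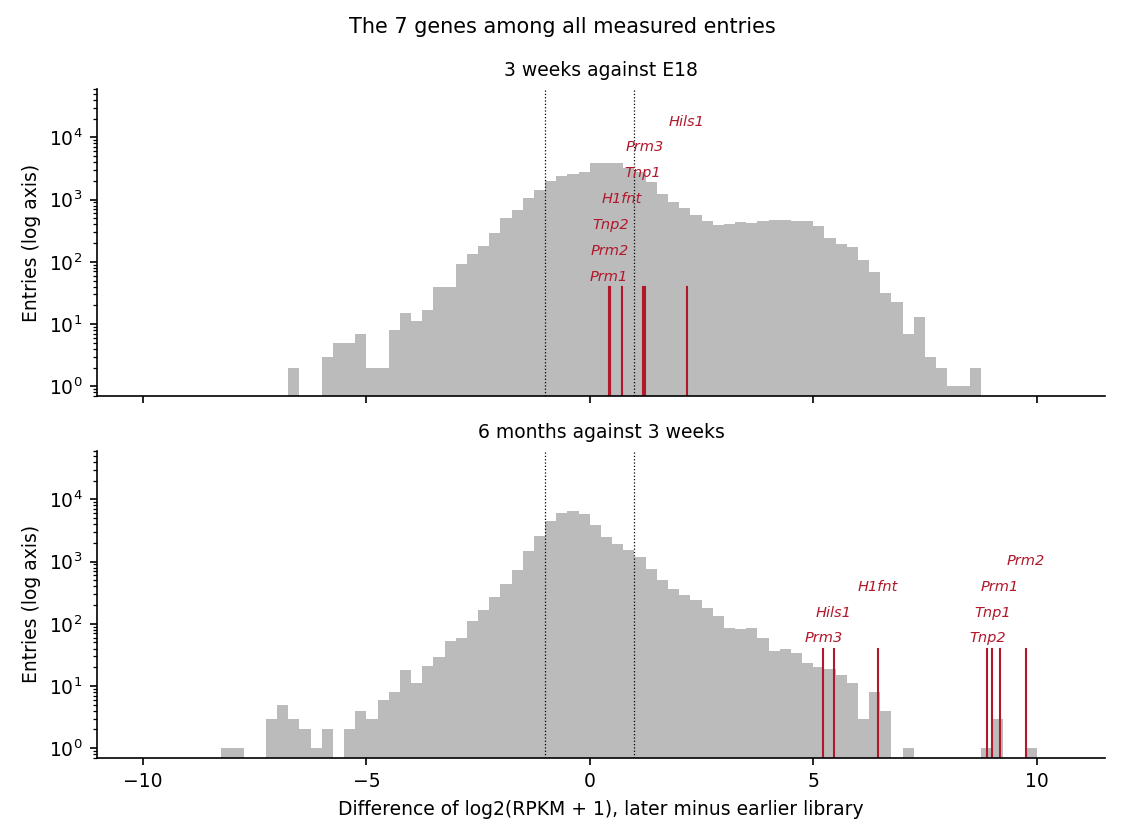
Number of measured entries (log axis) by difference of log2(RPKM + 1), for 3 weeks against E18 and 6 months against 3 weeks; red lines mark the 7 genes and dotted lines the 2-fold limit. In the upper panel the genes lie within the bulk of entries, from 0.42 to 2.17, and in the lower panel in the right tail, from 5.23 to 9.76.

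In bulk tissue, fewer cells of a type and less RNA per cell cannot be told apart. Most markers of round and elongating spermatids were higher at 6 months than at 3 weeks, as were the 7 genes. Over all measured entries 9.73% were higher and 14.1% lower from 3 weeks to 6 months. From E18 to 3 weeks 12 of 15 round and 7 of 12 elongating spermatid markers were already higher. In that step 3 of the 7 genes and 32.0% of all measured entries were higher. The part of these markers in the result was not tested. The summed RPKM of 12 elongating spermatid markers was 2.37 at E14, 2.52 at E18, 41.9 at 3 weeks, then 2155.7 at 6 months, and 12 of 12 were higher at 6 months than at 3 weeks. Among them Odf1 of the outer dense fibres had 4.53 and 287 RPKM and the fibrous sheath protein Akap4 had 6.29 and 323. For 15 round spermatid markers the sums were 0.959, 1.14, 188 and 985, and 12 of 15 were higher at 6 months, led by Spem1 (0.169 and 172 RPKM). For 8 spermatocyte markers they were 1.51, 5.09, 684 and 723, so these were already high at 3 weeks, and 1 of 8 was higher and 5 were lower at 6 months.

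Sums of other marker lists also differed between the libraries, and the cell make-up of the libraries was not measured. Sertoli cell markers summed to 9.80 RPKM at E14, 114 at E18, 176 at 3 weeks, then 172 at 6 months, and Leydig cell markers to 8.02, 126, 64.0 and 552. Of 8 Sertoli cell markers 6 were higher at E18 than at E14, and Sox9, named after its values were seen, had its highest level at E14 (4.00 RPKM, against 1.49 to 3.08 in the other libraries). All 5 Leydig cell markers were higher at E18. For both lists the share higher over all measured entries was 2.17%. Kidney and bladder markers summed to 9.38, 58.5, 0.628 and 0.440 RPKM, and epididymis markers to 0.0322, 0.322, 44.4 and 0.0197. Of the 5 epididymis markers 2 were measured, and Crisp1 alone had 41.5 of the 44.4 RPKM. Spermatogonia markers summed to 17.2, 14.3, 25.2 and 12.6 RPKM, and 0 of 6 measured were higher and 2 lower at 6 months. Over all measured entries 9.73% were higher and 14.1% lower in that step, so the 0 higher is near the background. The part of these markers in the values of the 7 genes was not tested.

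The make-up of the 7 genes' reads differed between 3 weeks and 6 months. Their 284 reads at 3 weeks were 0.000836% of the library, and their 146630 reads at 6 months were 0.410%. The linker histones held 53.9% of these reads at 3 weeks (47.9 to 59.8) and 9.87% at 6 months (9.72 to 10.03). Hils1 alone went from 38.0% to 4.26%. Protamines held 22.2% (17.5 to 27.5) and 53.6% (53.4 to 53.9), and transition proteins 23.9% (19.1 to 29.3) and 36.5% (36.3 to 36.8). None of these intervals at 3 weeks overlapped that at 6 months. For Prm1 and Hils1 these shares take the smallest reads that fit. Read shares also depend on gene model length. It was 1337 bases for Prm1, 1326 for H1fnt and 796 for Hils1, against 408 to 620 for the other members. In summed deposited RPKM the linker histones had 4.996 at 3 weeks, beside 4.42 for transition proteins and 2.85 for protamines. At 6 months the linker histones had 393, the lowest of the 3 groups. The ratio of protamine to transition protein reads was 0.926 at 3 weeks (0.647 to 1.32) and 1.47 at 6 months (1.45 to 1.48). Per length the order at 6 months was the opposite: summed deposited RPKM was 2527 for protamines and 3237 for transition proteins, a ratio of 0.781, beside 0.644 at 3 weeks. On GENCODE transcript lengths that ratio was 0.901 at 3 weeks and 1.32 at 6 months. In the fetal libraries the 3 groups had overlapping shares, with 13 to 22 reads each at E18.

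**Figure D3:**
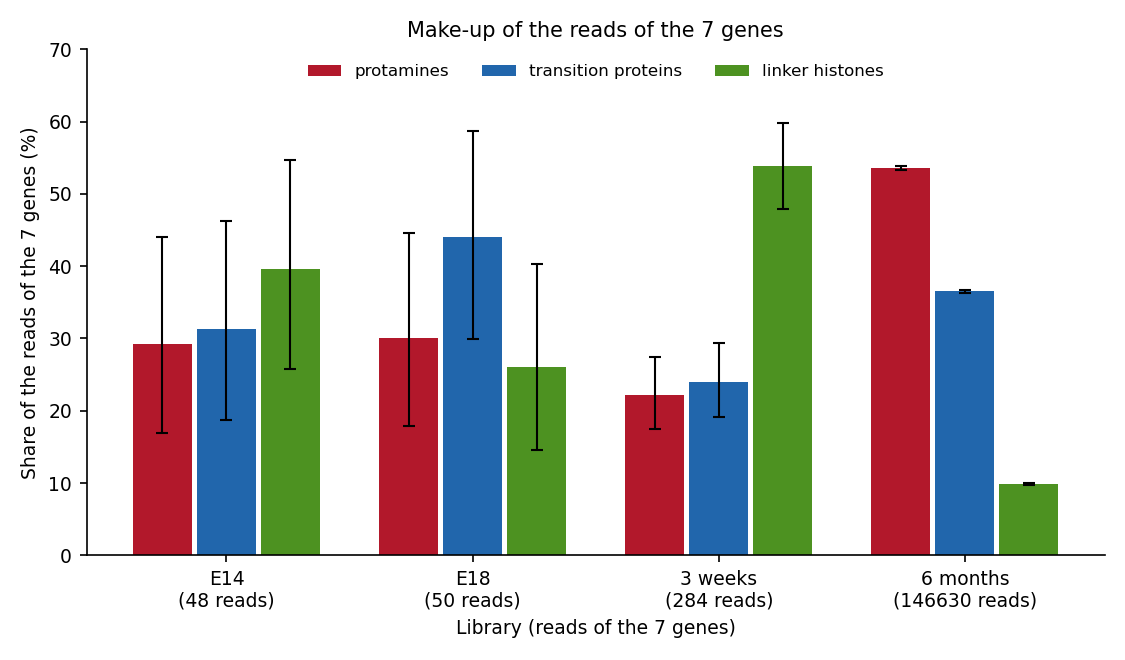
Share of the reads of the 7 genes (percent) held by protamines, transition proteins and linker histones in each library, with exact 95% Clopper-Pearson intervals and the number of reads below each library. Linker histones held the largest share at 3 weeks, 53.9%, and the smallest at 6 months, 9.87%. Shares are of reads and are not corrected for gene model length.

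The neighbours of the cluster on chromosome 16 did not share the size of its difference. Socs1, a cytokine signalling inhibitor 2400 bases beyond Tnp2, stood at 0.352 RPKM in the 3-week library and 1.08 in the 6-month library. On the other side, Rmi2, chosen after its values were seen, had 0.367 and 0.149, and the pseudogene Gm10343, inside the annotated span of Prm1, had 7.11 and 5.78. None of the 3 differed by 2-fold on the log2(RPKM + 1) scale, while the 4 members of the cluster differed by 5.23 to 9.76. That scale makes differences of genes as low as Socs1 and Rmi2 look smaller. Socs1 was the higher at 6 months, and Rmi2 and Gm10343 were the lower. Gm11172 was listed at 0 in every library.

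Neighbours of the other genes varied. Sgca, which surrounds Hils1, had 1.13 RPKM at 3 weeks and 0.830 at 6 months, against 3.996 and 219 for Hils1. Beside H1fnt, the olfactory receptor Olfr286 had 0.0203 and 0.0384 RPKM and the zinc finger gene Zfp641 had 0.471 and 0.263. On the same strand as Tnp1, Igfbp5, a growth factor binding protein 140190 bases away, had 1.47 and 0.358 RPKM, and Tns1, a focal adhesion gene 894322 bases away on the other side, had 4.08 and 18.8. The antisense gene 1700027A15Rik, which shares 40 exon bases with Tnp1, went from 0.0450 RPKM at E14 and 0 at E18 to 0.361 at 3 weeks and 105 at 6 months, with 2156 reads in the last library. The library kit keeps strand but whether the counting used it is not given in the sources used here, so reads of Tnp1 and of its antisense partner cannot be told apart. How far reads were shared was not tested. The 2156 reads are the smallest number that fits, at a recovered length of 571 bases. The GENCODE exons of the antisense gene cover 1396 bases together, so its reads could be a multiple of that number. Tnp1 had 35072 reads.

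**Figure D4:**
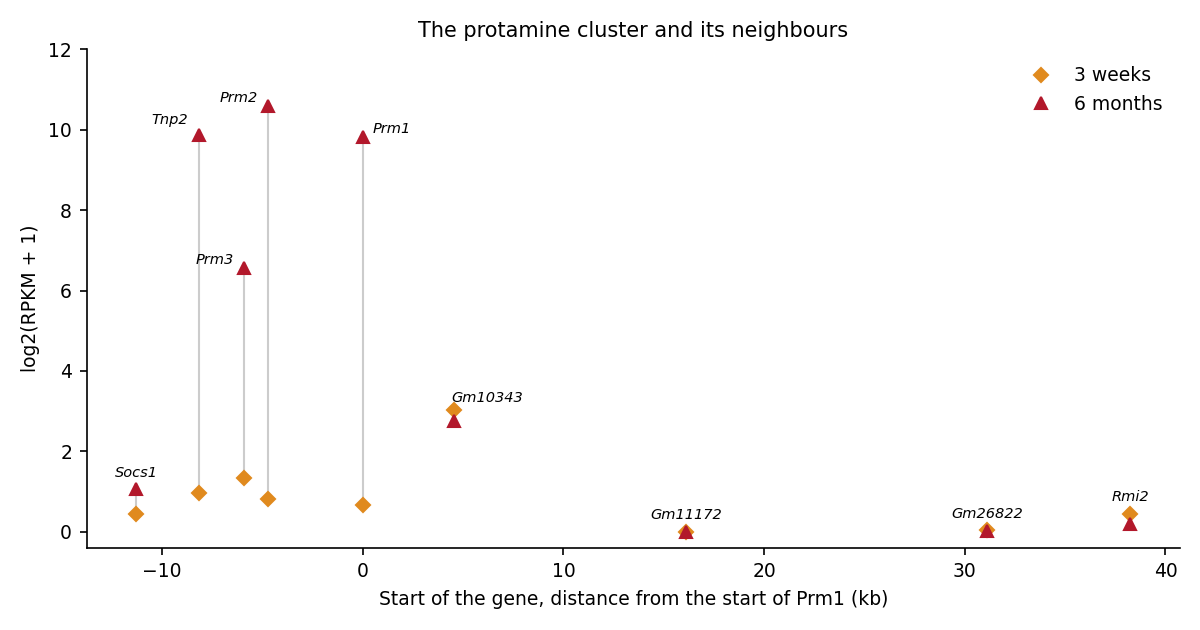
Level on the log2(RPKM + 1) scale at 3 weeks and 6 months against the distance of each gene's start from that of Prm1, in kb. Tnp2, Prm3, Prm2 and Prm1 are far apart between the 2 libraries, and Socs1, Gm10343 and Rmi2 on either side are not.

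Outside the 7 genes, Prm1, Prm2, Tnp1 and Tnp2 had no near counterpart among established protein-coding symbols across the 4 libraries. Other entries were not searched. Among those, NONMMUG015766 had levels near those of Prm1 (0.180, 0.234, 0.677 and 1006 RPKM, against 0.192, 0.175, 0.573 and 905). Likeness was the Euclidean distance over log2(RPKM + 1) among 11762 established protein-coding symbols, where 0 means equal levels. Prm1 and Tnp2 were 0.47 apart and Prm1 and Prm2 were 0.78 apart. The nearest other genes were Gsg1, a germ cell gene, to Prm1 (2.35), Prm2 (2.75) and Tnp2 (2.18), and Oaz3, the antizyme of spermatids, to Tnp1 (2.48). In the postnatal libraries Gsg1 had 4.84 and 349 RPKM, and Oaz3 had 7.52 and 496.

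The linker histones and Prm3 had closer counterparts. Nearest to Hils1 were Irgc1 (0.30), Cypt12 (0.33) and Odf1 (0.43), with Irgc1 at 3.54 and 215 RPKM at 3 weeks and 6 months. Nearest to Prm3 were Tsks, a substrate of testis-specific kinases (0.25), Cdrt4 (0.43) and Iqcf3 (0.45). H1fnt was nearest to Znrf4 (0.55), Fam71f2 (0.58) and Cdrt4 (0.65). With a pseudocount of 0.1 all 3 of the nearest genes remained for Tnp1, 2 of 3 for Hils1 and H1fnt, and 1 of 3 for Prm1, Prm2, Prm3 and Tnp2.

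Of 11 transcription regulators of spermatid genes 8 passed 2-fold upward from E18 to 3 weeks and 0 downward (median 2.15), and 3 were higher and 1 lower at 6 months than at 3 weeks (median 0.68). Over all measured entries 32.0% were higher and 10.5% lower at 3 weeks (median 0.46), and 9.73% higher and 14.1% lower at 6 months (median -0.31). Crem had 0.548 RPKM at E14, 0.879 at E18, 9.30 at 3 weeks, then 13.1 at 6 months, and was not past 2-fold in the last step. Its coactivator Fhl5, known as ACT, had 0.0878, 0.524, 1.21 and 37.7 RPKM, and Kif17, the motor that controls the location of that coactivator, had 0.0791, 0.198, 1.17 and 14.7. Fhl5 and Kif17 were low in the first 3 libraries and past 2-fold at 6 months. Gtf2a1l, a germ cell form of the general factor TFIIA, had 24.8 and 40.3 RPKM in the last 2 libraries, and Rfx2, a regulator of spermatid genes, had 5.05 and 9.06.

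Of the other factors on that list, Taf7l was the lower at 6 months (12.1 and 2.82 RPKM). Tbpl1, a relative of the TATA-binding protein that spermatids need, had 13.6 and 12.8 RPKM, and Tbp itself had 5.32 and 2.86. Kdm3a, a histone demethylase that acts at the Prm1 and Tnp1 promoters, had 4.67 RPKM at E18, 21.1 at 3 weeks and 11.0 at 6 months. Sox30 had 3.60 and 6.38 RPKM in the postnatal libraries, and Sox5 had 0.484 and 2.69, past 2-fold.

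Of 17 measured genes that store and translate spermatid mRNA, 13 were higher at 3 weeks and 0 lower (median 3.11). The shares over all entries were 32.0% higher and 10.5% lower. At 6 months 0 passed 2-fold in either direction, where 9.73% of all entries were higher and 14.1% lower. Ybx2, which binds and stores protamine mRNA, had 0.930 RPKM at E18, 174 at 3 weeks and 316 at 6 months. Pabpc2, a testis poly(A) binding protein, had 0.0678, 45.8 and 42.0, and Piwil1 had 0.152, 60.3 and 30.6. These 3 genes were high in a library in which Prm1 and Prm2 had 26 and 16 reads.

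Of 9 enzymes and chaperones that act on protamines or transition proteins, 8 were higher at 3 weeks and 0 lower (median 1.41), and 3 were higher at 6 months and 0 lower (median 0.31). The shares higher over all entries were 32.0% and 9.73%. Hspa2, the chaperone of transition proteins, had 1.66 RPKM at E18, 168 at 3 weeks and 172 at 6 months, and Hspa4l, another heat shock protein, had 0.480, 27.05 and 27.2. Camk4, a kinase of Prm2, was low at 0.128, 0.268 and 1.93 RPKM, and past 2-fold between the last 2. The thiol enzymes Txndc2 (2.21 and 161 RPKM) and Gpx4, whose nuclear form cross-links protamines (29.4 and 118), were the other 2 that were higher at 6 months.

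Genes of histone removal had 8 of 19 members higher at 3 weeks and 0 lower (median 0.86), and 2 higher and 5 lower at 6 months (median -0.45). Over all entries 32.0% were higher at 3 weeks, and 9.73% higher and 14.1% lower at 6 months. Of established protein-coding symbols 22.7% were higher at 3 weeks and 8.50% at 6 months. The 2 of 19 higher at 6 months are near the background. Brdt, which binds acetylated histones in spermatids, had 0.834 RPKM at E18, 23.9 at 3 weeks and 11.95 at 6 months. Psma8 of the spermatoproteasome had 0.613, 60.8 and 23.5, and Phf7, which marks histones for the exchange, had 0.451, 45.2 and 50.2. The 2 that were higher at 6 months were Tssk6, a kinase needed for the exchange (0.221 and 100.2 RPKM), and the remodeller Chd5 (0.483 and 3.40). Top2b, which relieves DNA strain by cutting it, had 9.56 and 2.38 RPKM and was the furthest below its level at 3 weeks.

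Of 8 other linker histones measured, 2 were higher and 5 lower at 3 weeks (median -2.28), and 0 were higher and 2 lower at 6 months (median -0.42). Over all entries 32.0% were higher and 10.5% lower at 3 weeks, and 14.1% lower at 6 months, so the 2 higher are near the background. Hist1h1t, the linker histone of spermatocytes, had 1.15 RPKM at E18, 132 at 3 weeks and 124 at 6 months. It was above Hils1 at 3 weeks (3.996 RPKM) and below it at 6 months (219). Polyadenylated RNA was isolated, and how much of the mRNA of each linker or core histone carries a poly(A) tail was not measured. The somatic Hist1h1b had 88.4, 1.27 and 0.714 RPKM, H1f0 had 68.3, 9.20 and 4.26, and Hist1h1c had 73.7, 15.8 and 14.4. Hist1h1a was higher at 3 weeks than at E18 (34.3 and 73.2 RPKM) and lower at 6 months (27.6). Hist1h1d (12.1, 1.002 and 0.482) and Hist1h1e (37.2, 6.22 and 2.56) were lower at 3 weeks than at E18, H1fx had 1.24, 2.61 and 5.84, and H1foo, an oocyte form, stayed under 1 RPKM.

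Among 11 measured core histone variants, 2 were higher and 1 lower at 3 weeks, and 1 was higher and 1 lower at 6 months. These counts are near or below the shares over all entries (32.0% and 10.5%, then 9.73% and 14.1%). The testis forms Hist1h2ba (56.3, 630.02 and 419.9 RPKM from E18 to 6 months) and Hist1h2aa (5.02, 61.1 and 39.5) were high by 3 weeks. H2afb1, a short variant of late spermatids, had 0 RPKM at E14 and E18, 0.168 at 3 weeks and 13.4 at 6 months. Histone copies are near-identical, so reads may be shared between them.

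**Figure D5:**
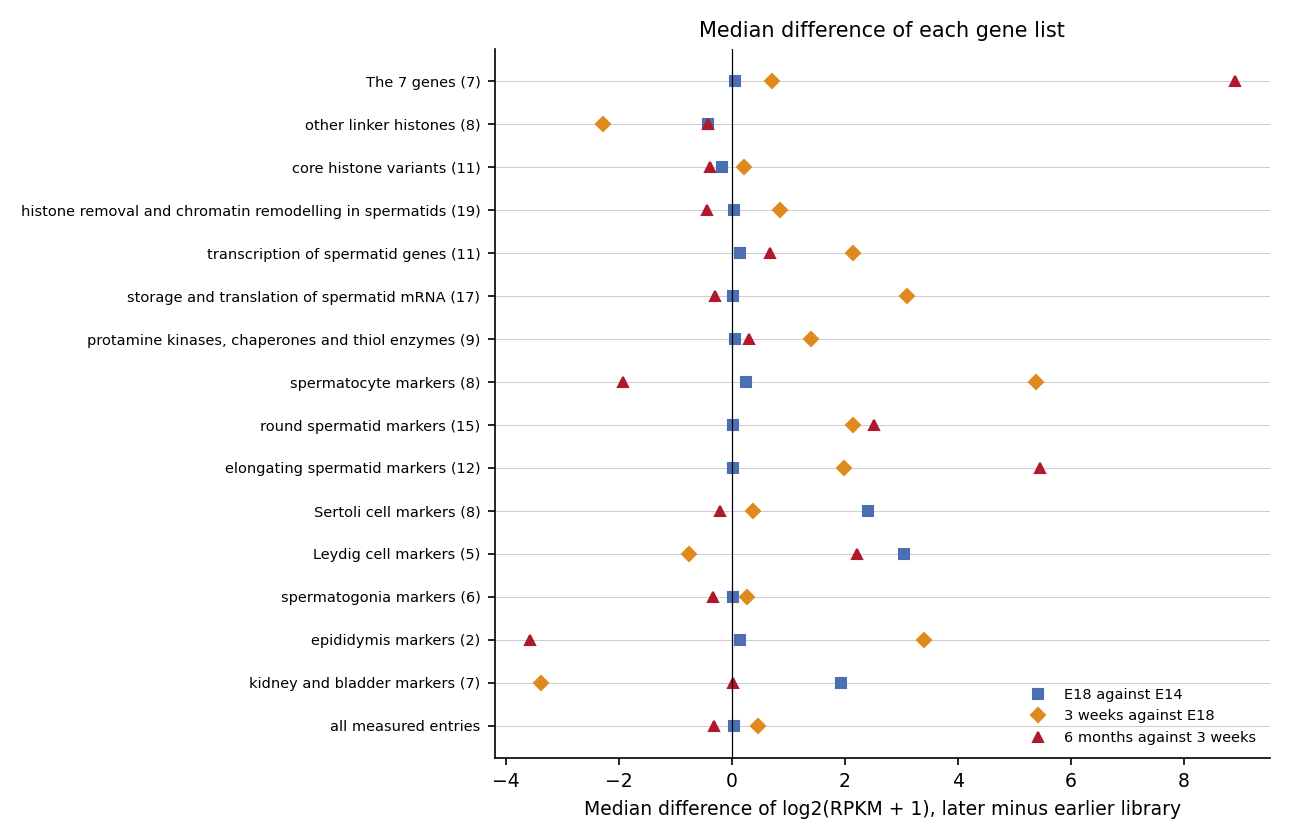
Median difference of log2(RPKM + 1) for the 7 genes, for each gene list (number of measured genes in brackets) and for all measured entries, in the 3 comparisons of adjacent stages. The 7 genes have their large median, 8.90, between 3 weeks and 6 months, where the medians of the 6 pathway lists lie between -0.45 and 0.68 and that of elongating spermatid markers is 5.46.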

How the data were processed

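RNA was sequenced from 4 mouse testis libraries. Per the labels' protocols, ribosomal RNA was depleted, polyadenylated RNA was isolated and a directional kit was used. The deposited values are RPKM, made by the authors. The aligner TopHat2 and build mm10 appear, with no role stated, per the submitters' notes on processing. For the counter, gene models, strand setting and multiply mapped reads the answer is not given in the sources used here.

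The RPKM denominators, 33952471 to 38903334 reads, were recovered from single-exon genes of GENCODE vM21 as the most frequent product of RPKM and length. Each gene's reads and model length are the smallest whole numbers that fit all 4 libraries at a relative tolerance of 1e-09. They were doubled for Prm2 and Tnp2, where the doubled length lay within 3% of a GENCODE length. Levels have exact Poisson intervals, and ratios and shares have Clopper-Pearson intervals, at 95%. They cover counting error only, since PCR copies are counted too. Differences are log2(RPKM + 1), later minus earlier stage. The pseudocount of 1 makes the changes of low genes look smaller. A difference of at least 1 in size was called, over the 42964 entries that reached 1 RPKM in any library. Adjacent comparisons share a library. Established protein-coding symbols leave out predicted and Riken-named genes.

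Genes named are the 7 genes, up to 3 per list and direction, any linker histone or transcription factor of the lists, annotated neighbours and the 3 genes most like each member. The members and the 14 gene lists were chosen with earlier results of these data known. Csda, an older name on the list of mRNA storage genes, had no entry. Recovery and calls were tested on simulated data. Python 3.11.15, numpy 2.4.6, pandas 2.3.3 and scipy 1.17.1 were used.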

Additional observations from a re-analysis of the deposited data

How the results depend on the processing

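All 7 genes were called higher at 6 months than at 3 weeks under the 7 alternatives planned and, in a choice made after seeing the data, with E18 in place of 3 weeks. Of all entries, 3.20% (4-fold limit) to 17.7% (median of ratios) were higher under those alternatives, and 32.9% with E18. From E18 to 3 weeks 3 were called, where 32.0% of all entries were higher. A pseudocount of 0.1 gave 7, where 45.7% of all entries were higher. A 4-fold limit gave 1 (16.1% of all entries) and E14 in place of E18 gave 3 (34.7%). Between E14 and E18 the count of 0 was 1 with a pseudocount of 0.1 (Tnp1), where 7.46% of all entries were higher.

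Shares of all measured entries are given here in brackets. Over the 75 measured genes of the pathway lists, 1 was higher and 0 lower at E18 than at E14 (2.17% and 1.34%). These counts were 5 and 1 with a pseudocount of 0.1 (7.46% and 4.12%), and 0 were higher at 4-fold (0.275%). At 3 weeks 41 were higher (32.0%), and 27 at 4-fold (16.1%). At 6 months 9 were higher and 9 lower (9.73% and 14.1%). These counts were 5 and 0 at 4-fold (3.20% and 1.80%) and 21 and 2 by the median of ratios (17.7% and 4.39%). With an equal sum of all other entries 15 were lower (16.8%).

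On GENCODE transcript lengths, also chosen after seeing the data, the levels at 6 months were 2581 RPKM for Prm1, 2242 for Tnp1 and 202 for Hils1. The ratio of Prm1 to Prm2 turned to 2.15 at 3 weeks, from 0.754, and to 1.69 at 6 months, from 0.593, as the shorter Prm1 length makes it. Summed RPKM of protamines to transition proteins was 0.901 at 3 weeks, from 0.644, and turned to 1.32 at 6 months, from 0.781. At 6 months the ratio was 2.41 for Tnp1 to Tnp2, 1.15 for Hils1 to H1fnt, 1.47 for Tnp1 to Prm2 and 0.0900 for Hils1 to Tnp1.

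Of entries past 2-fold, 61.9% were higher at E18, 75.2% at 3 weeks and 40.8% at 6 months. These were 47.9%, 66.2% and 80.1% by the median of ratios and 52.4%, 94.97% and 46.7% over 83 ribosomal protein genes. The median difference of all entries shifted by up to 0.56 at 3 weeks and 0.43 at 6 months. The cause was not tested. Fetal levels rest on 0 to 14 reads per gene, which limits any difference there. No paired analysis was possible because each stage has 1 library.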
